A study of Mus musculus with 8 samples.

Results

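Broad H3K27me3 domains were the H3K27me3 regions at least 5000 bp wide on chromosomes 1 to 19 other than chromosome 6. Overlapping H3K27me3 peaks, sharing 1 bp or more within or between the replicates, were joined into one region, which counted as a consensus region when each replicate contributed a peak. Of 30517 consensus regions in the series, 24391 lay on these 18 chromosomes, and 785 of those were broad domains while 23606 were narrower. Chromosome 6 held another 530 broad regions, which were not members. The domains were chosen by their width and by their presence in both replicates, so widths and enrichments are given as a description.

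Peak lists came from chromatin immunoprecipitation followed by sequencing (ChIP-seq) in 1 immortalised mouse melanocyte line, melan-Ink4a-Arf-1, whose pigment cells came from embryonic skin of mice carrying the Cdkn2a tm1RDp/tm1RDp genotype. All cells were grown with 200 nM of the phorbol ester TPA and 200 pM cholera toxin, and no other culture condition was profiled. H3K27me3 (antibody ab6002), H3K27ac (ab4729) and the transcription factor SOX10 (sc-17342X) were each precipitated in 2 libraries, set against 2 input libraries made without antibody. Because there is 1 line and 1 condition, the comparisons are between kinds of region within these lists, and no test across libraries was made.

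H3K27me3 is the trimethylated form of lysine 27 on histone H3. Polycomb repressive complex 2 deposits it, and its EED subunit binds the finished mark, which lets the complex spread along neighbouring nucleosomes into domains far wider than a transcription factor site. Such domains are known for covering silent developmental regulators, with the Hox clusters on mouse chromosomes 2, 6, 11 and 15 as the textbook case. H3K27ac, the acetylated form of the same residue, marks active promoters and enhancers, and 1 histone tail cannot carry both. SOX10 is a neural crest factor that melanocytes need. Positions are in the mm9 build, and genes under the domains were not analysed here.

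H3K27me3 libraries were the deepest, with 67060647 and 71987481 tags kept in replicates 1 and 2. The H3K27ac libraries kept 45583056 and 44416913 tags. The SOX10 libraries kept only 6440395 and 8985699 tags, so a SOX10 site missing from a list may lie below the depth of that library. The input for the histone marks kept 42782172 tags and that for SOX10 12059585 tags.

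The broad domains were few but took up much of the marked sequence. They made up 3.22% of the H3K27me3 consensus regions on these chromosomes and 13.9% of the sequence in them, with 6.004 Mb in broad domains and 37.2 Mb in narrower regions. They held 524971 tags of replicate 1 and 544471 of replicate 2, which was 20.5% and 20.7% of the tags in the consensus regions there and 11.7% and 13.8% of those in all H3K27me3 peaks there. A domain was 6484 bp wide at the median, and the quartiles were 5601 and 8262 bp, against a median of 1298 bp in narrower regions. Widths were skewed towards the limit, with 299 domains under 6 kb, 100 of at least 10 kb and 12 of at least 20 kb. The limit fell in a continuous run of widths. Just inside it were chr2:152884217-152889227 (5011 bp) with a fold of 5.25 in replicate 1 and 6.78 in replicate 2, chr15:78799517-78804528 (5012 bp) with 6.12 and 6.56, and a region of 5005 bp with 6.12 and 6.34. Just outside it were chr5:106987311-106992304 (4994 bp) with 6.12 and 6.78, chr4:107275952-107280947 (4996 bp) with 6.99 and 5.46, and chr1:75455402-75460398 (4997 bp) with 9.62 and 6.56. Folds ran from 5.25 to 6.78 in these 3 domains and from 5.46 to 9.62 in these 3 narrower regions, so the ranges overlapped.

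A broad domain was usually built from several peaks. The domains held 1795 peaks of replicate 1 and 1786 of replicate 2, with a median of 2 peaks per domain in each, against 1 in narrower regions. A single peak filled the domain in both replicates at 90 domains, and up to 8 peaks of replicate 1 and 9 of replicate 2 were joined. The longest peak reached 5000 bp in both replicates at 198 domains, in replicate 1 alone at 166 and in replicate 2 alone at 118. At the other 303 domains no single peak was that long, so these were broad only through the merging of overlapping peaks from both lists. Each list on its own had 392 peaks of at least 5000 bp on these chromosomes in replicate 1 and 324 in replicate 2.

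Both replicates placed the domains at nearly the same coordinates. Peaks of both replicates covered 80.9% of a domain at the median, with quartiles of 69.1% and 90.1%, against 52.3% of a narrower region and 56.5% of a region of 2 to 5 kb. More than 90% was covered by both at 198 domains and less than 50% at 77. The left edges of the replicates differed by a median of 215 bp and the right edges by 251 bp, which is about the 200 bp fragment length set for these lists. In narrower regions the edges differed nearly as little, by medians of 257.5 and 273 bp. The same offset takes a larger share of a narrow region, so shares covered by both replicates are not on equal terms between widths. In the domains, 711 left edges and 704 right edges lay within 1000 bp of each other. The summits were less well placed than the edges, with a median distance of 1269 bp between replicates and only 105 domains whose summits lay within 200 bp.

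Enrichment was moderate and much alike across the domains. The authors' summit fold, the tags in 200 bp at the highest point over the input level, had a median of 7.21 and 7.43 in the broad domains (replicates 1 and 2), against 5.03 and 5.25 in narrower regions. As means of both libraries these medians were 7.32 ± 0.156 in broad domains and 5.14 ± 0.156 in narrower regions (SD, n = 2 libraries). Summit folds move in steps of 0.219, so each of these SDs reflects a single step and is a coarse measure of spread. A second measure averages over the peaks of a domain, as their tags divided by the tags that the genome-wide input level gives over the length of those peaks. This mean enrichment had a median of 3.79 and 3.96 in broad domains, against 2.78 and 2.91 in narrower regions, or 3.88 ± 0.119 against 2.85 ± 0.0975 (SD, n = 2 libraries). Parts of a domain outside a replicate's peaks do not enter it. With the same tags set against the whole width, which counts no tag outside a peak and is a lower bound, the medians were 3.50 and 3.59 in broad domains, against 2.19 and 2.28 in narrower regions. In 777 of 785 domains both summit folds lay between 4 and 12. A wider region holds more windows in which its maximum is sought, so summit folds of regions of different width are not on equal terms.

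The replicates ranked the domains only in part alike. The Spearman correlation between replicates across the 785 domains was 0.412 for the summit fold and 0.529 for the mean enrichment, with the same input behind both. The summit folds were within 10% of each other at 339 domains and differed by more than 1.5 times at 45. Replicate 2 had the higher mean enrichment at 588 domains and the higher summit fold at 473, while replicate 1 had the higher summit fold at 271. The domains at the low end show the size of the error. The 5 lowest were chr2:31686200-31691527 with a fold of 6.12 in replicate 1 and 4.81 in replicate 2, chr11:45787888-45793807 with 5.03 and 5.90, chr15:82763737-82769421 with 5.46 and 5.46, chr2:127522231-127527631 with 5.68 and 5.25, and chr7:91841631-91846760 with 6.99 and 4.37. These folds overlap those of narrower regions, and neither replicate was the lower at all 5.

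Wider domains were more enriched and better shared. In domains under 6 kb (n = 299) the median mean enrichment was 3.63 in replicate 1 and 3.73 in replicate 2. It was 3.82 and 4.003 from 6 to 8 kb (n = 269), 3.87 and 4.18 from 8 to 12 kb (n = 155) and 4.32 and 4.72 from 12 kb up (n = 62). The order of the 4 width classes was thus the same in both replicates, and the Spearman correlation of width with mean enrichment over all domains was 0.416. The share of a domain covered by both replicates was 72.6%, 82.1%, 85.7% and 94.4% in the same classes from narrow to wide. Wide domains were also less broken up, with 1.66 peaks per 10 kb of replicate 1 in the widest class and 3.71 in the narrowest, and 1.57 and 3.77 in replicate 2. Width and the values in this paragraph come from the same peaks, so they share their counting error. An edge offset of a given size is also a smaller share of a wider domain, which by itself raises the share covered by both replicates.

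**Figure D1:**
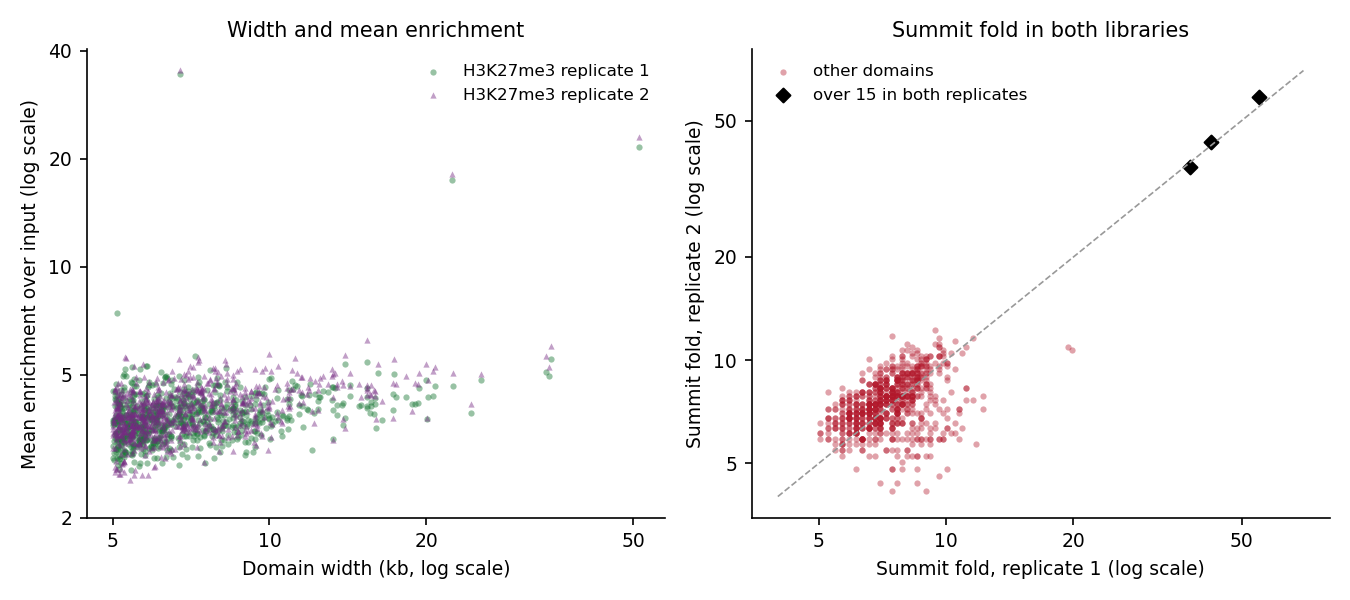
Width and enrichment of broad H3K27me3 domains. Left, each domain's width in kb against the mean enrichment of its peaks over input, with circles for replicate 1 and triangles for replicate 2; right, each domain's summit fold in replicate 1 against replicate 2, with a dashed line of equality, all on log scales. Points crowd below a width of 10 kb and a summit fold of 12, and the 3 diamonds are the domains above a fold of 15 in both replicates.

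A few positions stood out among the widest and strongest domains. The widest domain of all, chr11:3049328-3100498, spanned 51171 bp with summit folds of 42.4 and 43.3 and held 25189 and 26804 tags. Directly beside it, chr11:3026684-3049076 spanned 22393 bp with folds of 37.8 and 36.5. The highest fold was in a domain of only 6747 bp, chr17:39979477-39986223, with 54.9 and 58.8 (56.8 ± 2.78, SD, n = 2). These 3 domains were the only ones with a fold above 15 in both replicates, and the input itself was high at the ones where it could be read. The input level recovered from SOX10 or H3K27ac peaks was up to 28.9 times the genome-wide level within chr11:3026684-3049076 and up to 207 times within chr17:39979477-39986223. No H3K27ac or SOX10 peak lay in the widest domain to read it from, nor in most other domains. Another domain with input above 5 times the genome-wide level, chr1:90174111-90189516, had an input of up to 6.87 times and folds of 9.62 and 11.6. The H3K27me3 lists were called without a local background, so their folds are not corrected for such input, and how much of these folds is H3K27me3 was not tested. 2 more domains passed a fold of 15 in replicate 1 but not in replicate 2, where they were still above the upper quartile of 8.52. At chr17:13739105-13746301 the folds were 19.9 in replicate 1 and 10.7 in replicate 2, and at chr11:2999836-3004927 they were 19.5 and 10.9. No H3K27ac or SOX10 peak lay in either domain to read the input from.

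The other 8 of the 10 widest domains had folds of 7.87 to 11.6 in replicate 1 and 9.18 to 11.6 in replicate 2, mostly above the upper quartiles of all domains, which were 8.30 and 8.52. They were chr1:90121834-90156506 (34673 bp, folds 11.2 and 10.9), chr11:96024809-96059240 (34432 bp, 11.6 in both), chr15:102751748-102785680 (33933 bp, 9.62 and 11.2) and chr17:26972736-26998183 (25448 bp, 10.1 and 9.83). Next in width were chr14:69912935-69937368 (24434 bp, 7.87 and 9.18), chr11:84327648-84350118 (22471 bp, 8.96 and 10.3), chr15:102797188-102818014 (20827 bp, 8.52 and 10.7) and chr2:74521201-74541772 (20572 bp, 8.52 and 10.49). Each of these 8 was more than 94% covered by peaks of both replicates. The one closest to acetylated chromatin was chr11:84327648-84350118, with an H3K27ac consensus region 556 bp away, and the one farthest was chr15:102751748-102785680, at 247 kb.

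Broad domains occurred on all 18 chromosomes at uneven density. Chromosome 2 held the most, 100, followed by chromosome 11 with 76 and chromosome 9 with 74, while chromosome 16 held 16 and chromosome 12 held 17. Per megabase of the stretch covered by the lists, the density ran from 0.144 on chromosome 12 to 0.671 on chromosome 19, with a median of 0.293 over the chromosomes. Chromosome 6 had 3.62 broad regions per Mb, above every one of them. Chromosomes with more broad domains also had more H3K27me3 consensus regions of any width per Mb (Spearman 0.880, n = 18 chromosomes) and more H3K27ac consensus regions per Mb (0.701). These correlations are a description, since all chromosomes share the same libraries and the density of sequence that can be mapped was not tested. The domains themselves differed little between chromosomes: the median width ran from 5969 bp on chromosome 13 to 7738 bp on chromosome 14, and the median fold from 6.99 to 8.52 in each replicate. Broad regions on chromosome 6 had a median width of 7281 bp and median folds of 6.99 and 7.43, so that chromosome stood apart in the number of its regions far more than in their strength.

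**Figure D2:**
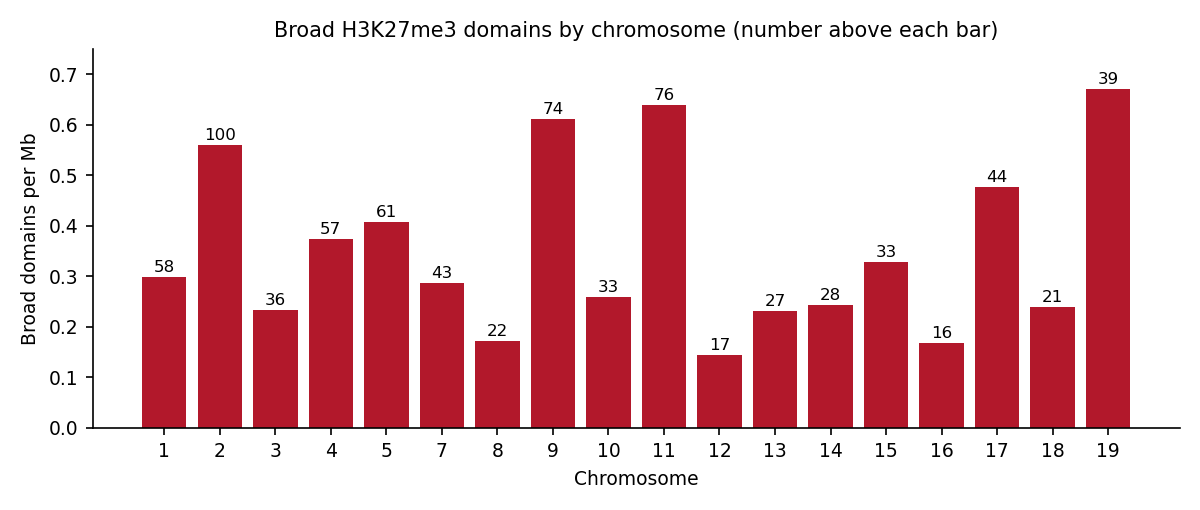
Broad H3K27me3 domains by chromosome. Bars give the domains per Mb on each of the 18 chromosomes and the label on a bar its number of domains; density varies between 0.144 per Mb on chromosome 12 and 0.671 per Mb on chromosome 19.

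The sequence around a broad domain was itself rich in H3K27me3. In the 5 kb beside a broad domain, H3K27me3 peaks covered 42.7% of the sequence in replicate 1 and 42.9% in replicate 2 (42.8 ± 0.172, SD, n = 2), against 23.4% and 22.6% (23.0 ± 0.515) beside narrower regions. By consensus regions the cover was 32.4% in the first 1 kb outside a broad domain, 47.3% at 1 to 5 kb, 35.7% at 5 to 10 kb, 26.5% at 10 to 20 kb, 17.7% at 20 to 50 kb and 12.0% at 50 to 100 kb. Around narrower regions it was 15.8%, 22.5%, 17.1%, 14.1%, 10.8% and 8.01% over the same distances. Even at 50 to 100 kb the cover beside broad domains was above the 1.91% of the whole stretch that H3K27me3 consensus regions covered on these chromosomes. The dip in the first 1 kb is partly set by the rule, since a region touching the domain would have been merged into it. Beyond the edge, the marked sequence thus went on as separate H3K27me3 regions. The cover at 0 to 5 kb was highest beside the widest domains, with 57.9% and 57.6% in replicates 1 and 2 for domains of at least 12 kb and 36.4% and 37.7% for those under 6 kb.

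**Figure D3:**
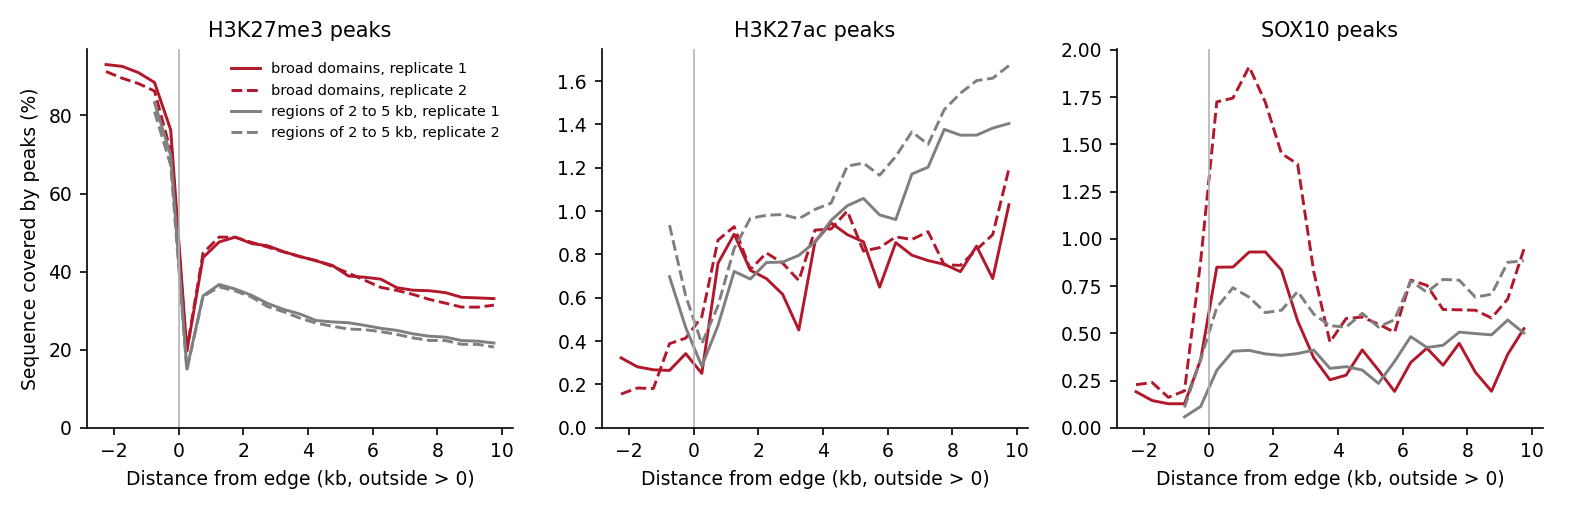
Cover of each mark by distance from the edge of an H3K27me3 region. Lines give the percent of sequence covered by peaks in 500-bp bins, with distances above 0 outside the region, for broad domains and for regions of 2 to 5 kb, solid for replicate 1 and dashed for replicate 2; outside the edge, cover by H3K27me3 peaks is higher beside broad domains at every distance drawn, and cover by SOX10 peaks in the first 1 kb.

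The domains also formed groups along the chromosome. Of the 785 domains, 333 (42.4%, exact Clopper-Pearson 95% interval 38.9 to 46.0%) had another broad domain within 20 kb, and 452 stood alone. Such intervals cover counting error only. They formed 132 groups on all 18 chromosomes, of which 84 held 2 domains, 37 held 3 and 11 held 4 or more, with a median span of 23.1 kb. Of the 201 gaps inside groups, 66 were shorter than 1 kb and the median was 2417 bp. H3K27me3 peaks of replicate 1 covered 45.1% and those of replicate 2 covered 45.3% of the gap sequence, so the gaps were marked about as densely as the 5 kb flanks. H3K27ac consensus regions lay in only 5 of the gaps (2.49%) and SOX10 consensus sites in 10.

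The group with the most domains was on chromosome 15. Its 10 domains at chr15:102732058-102903112 filled 93.7% of a span of 171 kb, and the longest ran for 33933 bp. Summit folds were 6.34 to 10.1 in replicate 1 and 6.99 to 12.2 in replicate 2, highest in replicate 2 at chr15:102821177-102828463. No base of an H3K27ac consensus region or SOX10 consensus site lay in the span, and the H3K27ac region nearest to any of its domains was 141 kb away. The second group, at chr2:74485197-74606921, had 7 domains in 122 kb with folds of 6.12 to 8.96 and 6.99 to 10.49, and it likewise held no base of either. Its domains filled 67.5% of the span, but H3K27me3 peaks of any width covered 83.3% and 86.2% of it. The third group, at chr9:61150594-61215218, had 5 domains in 64.6 kb with folds of 6.12 to 8.74 and 6.12 to 8.09. It differed from the other two in holding 688 bp of H3K27ac consensus regions and 1980 bp of SOX10 consensus sites between its domains or at their edges. H3K27me3 peaks covered 71.6% and 71.4% of this span, the least of the 3 groups.

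**Figure D4:**
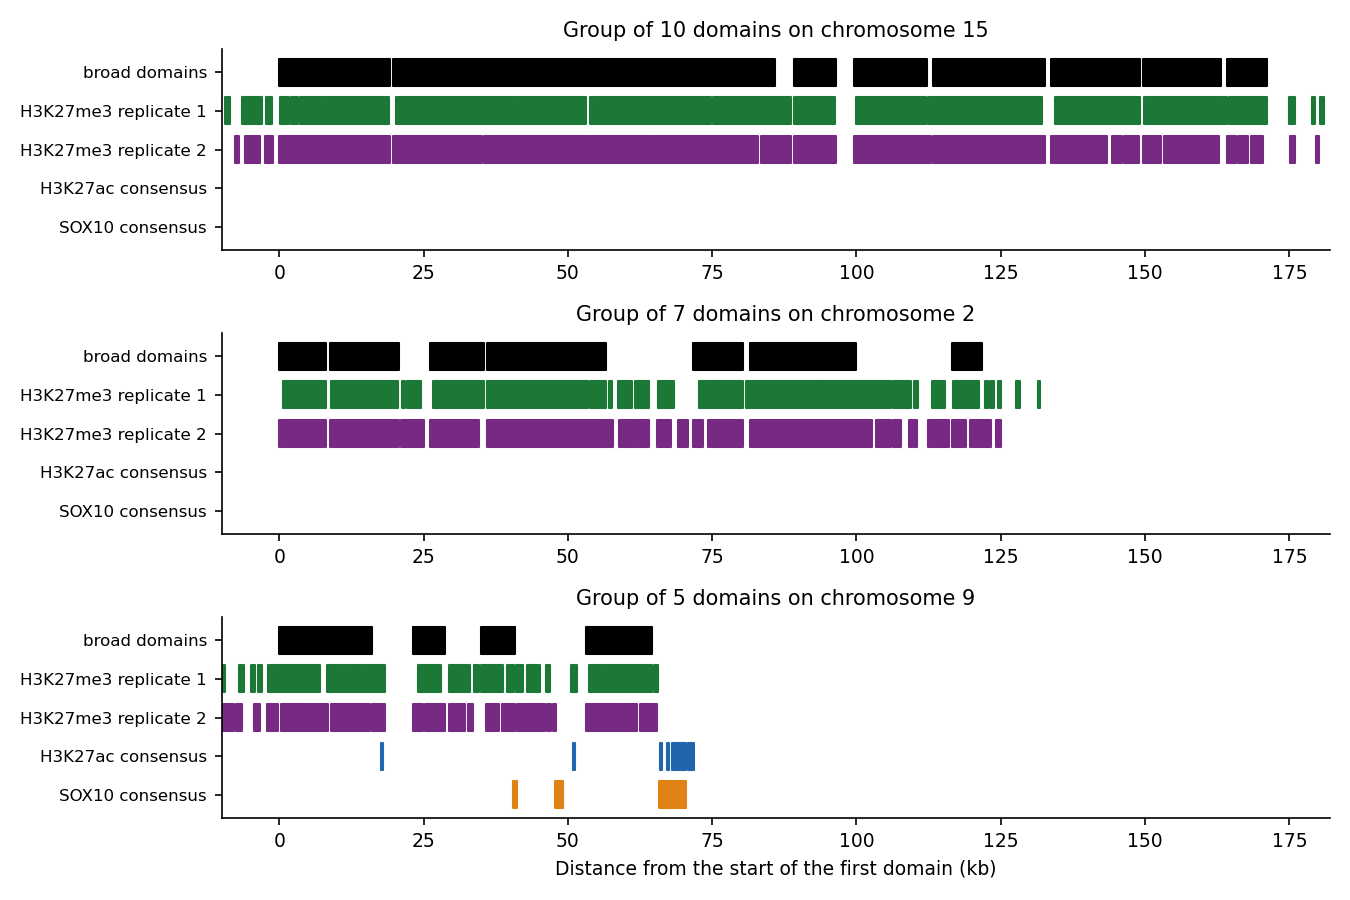
The 3 groups with the most broad domains, on chromosomes 15, 2 and 9 from top to bottom. Blocks are drawn to scale in kb from the start of the first domain, with rows for broad domains, H3K27me3 peaks of each replicate, H3K27ac consensus regions and SOX10 consensus sites; between the first and last domain the groups on chromosomes 15 and 2 hold no H3K27ac or SOX10 block, and the group on chromosome 9 holds both. Gaps under 1 kb between domains are too short to see.

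Grouped domains were wider than single ones and farther from acetylated chromatin. The median width was 7007 bp in grouped domains and 6224.5 bp in single ones. The median mean enrichment was 3.86 and 4.16 in replicates 1 and 2 of grouped domains, against 3.75 and 3.80 in single domains, a difference that was larger in replicate 2. The nearest H3K27ac consensus region was 62.8 kb away at the median from grouped domains and 48.0 kb from single ones. An H3K27ac consensus region lay within 5 kb of 13 grouped domains (3.90%) and of 38 single ones (8.41%). In the 5 kb flanks, H3K27ac peaks covered 0.460% and 0.403% of the sequence beside grouped domains, against 0.891% and 1.11% beside single ones, so both H3K27ac replicates were lower beside grouped domains. The flank of a grouped domain can reach into the gap and the next domain. H3K27ac consensus regions covered only 0.412% of the gaps and 0.140% of the domains. The differences within 5 kb may thus be partly set by the grouping rule.

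H3K27ac was almost absent inside the broad domains. Of the 785 domains, 12 (1.53%, 95% interval 0.792 to 2.66%) overlapped an H3K27ac consensus region, against 392 of 23606 narrower regions (1.66%, 1.501 to 1.83%) and 1.66% of H3K27me3 consensus regions of any width on these chromosomes. The share of domains was thus near that background although each domain is several times wider. Per base the difference showed: H3K27ac consensus regions covered 0.140% of the sequence in broad domains, 0.573% in narrower regions and 1.02% of the whole stretch. By single lists, H3K27ac peaks covered 0.478% of the broad domains in replicate 1 and 0.232% in replicate 2 (0.355 ± 0.174, SD, n = 2), against 0.723% and 0.949% of narrower regions (0.836 ± 0.160). Most of the gap between the replicates lay in the 3 domains of high input, without which the cover was 0.170% and 0.178% (0.174 ± 0.00591). No peak of either H3K27ac list touched 739 domains (94.1%), while 46 carried a peak of at least 1 list. An H3K27ac peak of replicate 1 lay in 27 domains (3.44%) and 3.19% of narrower regions, and one of replicate 2 in 31 domains (3.95%) and 4.07% of narrower regions, so the order of the shares differed between the lists. Broad regions of chromosome 6 overlapped H3K27ac consensus regions more often, at 35 of 530 (6.60%).

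The acetylated sites within domains were small. The 12 domains held 18 H3K27ac consensus regions, 14 inside and 4 across an edge, and 4 of those inside lay within 1 kb of the edge. They were 419 bp wide at the median and had median H3K27ac folds of 7.66 and 7.33, against 539 bp and folds of 8.74 and 8.57 for all 34013 H3K27ac consensus regions on these chromosomes. The 2 domains with the most acetylated sequence were ones of high input. At chr11:3026684-3049076, 1994 bp were covered with H3K27ac folds of only 2.72 to 4.05, and at chr1:90174111-90189516, 1091 bp were covered by the end of a region with folds of 3.86 and 3.98. Apart from these, chr13:73994050-74003006 held 3 H3K27ac regions with a total of 983 bp and folds of 7.87 to 10.2 in replicate 1 and 6.86 to 7.82 in replicate 2. At chr11:79469988-79480502, 3 regions covered 971 bp, with folds of 7.06 to 9.41 and 6.76 to 8.95. At chr7:152352411-152357856, 2 regions covered 949 bp, with folds of 7.87 to 8.66 and 7.71 to 8.34. In the last 3, the H3K27me3 folds were 6.56 to 7.65 in replicate 1 and 6.34 to 9.40 in replicate 2, so they were ordinary members by that measure, and whether the same cells or alleles carried both marks was not tested.

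Acetylated chromatin was also somewhat farther from broad domains than from narrower regions. The nearest H3K27ac consensus region was 53.8 kb away at the median, against 46.2 kb. Within 5 kb of an H3K27ac region lay 51 domains (6.50%), against 7.91% of narrower regions and 7.86% of regions of any width. Within 50 kb it was 366 domains (46.6%), against 52.5% and 52.3%. Cover by H3K27ac consensus regions was 0.602% at 5 to 10 kb from a broad domain and 1.504% at 20 to 50 kb, against 1.17% and 1.96% around narrower regions, and it was 2.15% and 2.36% at 50 to 100 kb. In the first 1 kb the order was reversed, with 0.479% beside broad domains and 0.260% beside narrower regions. Both replicates had that order, with 0.505% and 0.690% beside broad domains against 0.395% and 0.520%, although the replicates differed by as much as the groups did.

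SOX10 sites were rare inside the domains but more frequent at their edges than at those of narrower regions. A SOX10 consensus site overlapped 11 domains (1.401%, 95% interval 0.702 to 2.49%), against 35 of 23606 narrower regions (0.148%, 0.103 to 0.206%) and 0.189% of regions of any width. A SOX10 peak of replicate 1 lay in 15 domains (1.91%) and 0.233% of narrower regions, and a peak of replicate 2 in 30 domains (3.82%) and 0.555% of narrower regions. Broad regions of chromosome 6 had a share like that of the domains, with a SOX10 consensus site at 9 of 530 (1.70%). Of the 12 pairs of a domain and a site, 10 had the site across the edge and only 2 had it inside. SOX10 consensus sites covered 0.163% of the broad domains and 0.0407% of narrower regions, but 6440 bp of those in broad domains were a single block in the high-input domain of chromosome 17, without which and the other high-input domains the cover was 0.0562%. That block had SOX10 folds of only 1.82 and 2.32 although it held 5018 and 6636 tags.

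Outside the edge the difference was larger. In the first 1 kb beside a broad domain, SOX10 peaks covered 0.850% of the sequence in replicate 1 and 1.73% in replicate 2, against 0.193% and 0.365% beside narrower regions. The cover by consensus sites was 0.844% at 0 to 1 kb, 0.603% at 1 to 5 kb and 0.392% at 5 to 10 kb, against 0.141%, 0.271% and 0.377% around narrower regions, and 0.213% of the whole stretch. The excess beside broad domains was therefore within 5 kb and ended by 5 to 10 kb. A SOX10 consensus site lay within 1 kb of 24 domains (3.06%, 1.97 to 4.52%), against 0.542% of narrower regions (0.453 to 0.644%), 0.886% of regions of 2 to 5 kb and 0.623% of regions of any width. With the single SOX10 lists it was 29 domains (3.69%) and 0.805% of narrower regions for replicate 1, and 58 domains (7.39%) and 1.53% of narrower regions for replicate 2. The share was 1.28% of the 392 domains defined from H3K27me3 replicate 1 alone but 3.09% of the 324 from replicate 2 alone. It was 1% of the 100 domains of at least 10 kb. A SOX10 site lay within 5 kb of 49 of the 785 domains (6.24%), against 2.42% of narrower regions and 2.54% of regions of any width. Within 50 kb the order was the other way round, at 21.9% of domains, 25.6% of narrower regions and 25.5% of regions of any width. Broad domains were thus nearer to SOX10 sites only at close range, while the median distance to the nearest site was 155 kb from a broad domain and 124 kb from a narrower region.

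The SOX10 sites beside broad domains rarely carried H3K27ac. This comparison was added after the values had been seen. Of the 22 SOX10 consensus sites within 1 kb of a broad domain, 0 overlapped an H3K27ac consensus region, which allows a share of up to 13.6% by a count of 3 and 15.4% by the exact interval, against 2031 of 3838 SOX10 sites on these chromosomes (52.9%). The nearest H3K27ac consensus region was 3422 bp away at the closest of the 22 and 54.7 kb at the median. With distance the share returned, with 6 of 44 sites (13.6%) within 5 kb of a domain and 32 of 100 (32.0%) within 20 kb. Beside narrower regions it was 20 of 110 (18.2%) within 1 kb, 27.5% within 5 kb and 46.9% within 20 kb. With the H3K27ac list of replicate 2 alone, 4.55% of the 22 sites were acetylated. Of the SOX10 peaks within 1 kb in the single lists, 1 of 28 (3.57%) was acetylated for replicate 1, where 43.5% of all sites were, and 3 of 54 (5.56%) for replicate 2, where 44.9% were.

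The SOX10 folds at these sites were not low, apart from the chromosome 17 block described above, which is 1 of the 22. Their median SOX10 folds were 12.0 in replicate 1 and 16.0 in replicate 2, against 11.1 in both for all sites, although the tags per site were few. The strongest, at chr3:36306345-36307194, had folds of 31.6 and 32.1 (31.9 ± 0.318, SD, n = 2) from 27 and 39 tags. At chr2:127358839-127359933 the folds were 21.7 and 29.5 from 26 and 46 tags, in a site next to a domain of 15917 bp.

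Most of these sites sat in short breaks between H3K27me3 regions. The summit lay outside any H3K27me3 consensus region at 19 of the 22 and inside one at 3. At 13 sites an H3K27me3 region ended within 2 kb of the summit on each side, and the break between the regions was 326 to 3033 bp long with a median of 1854 bp. The regions on both sides were broad domains at 4 of these 13. The sites were chosen for lying within 1 kb of a domain, so a region close by on 1 side was largely given. H3K27me3 consensus regions also covered 47.3% of the sequence at 1 to 5 kb from a domain. The same counts for other positions near a domain edge were not computed, so whether such breaks are particular to SOX10 sites was not tested. Within the chromosome 10 group of 4 domains at chr10:42984941-43015201, the site at chr10:42992775-42993473 (folds 15.8 and 16.0) filled a break of 463 bp between domains of 8003 and 6098 bp. The next site, chr10:42999274-43000241 (folds 17.1 and 20.1), lay in a break of 1243 bp between that domain of 6098 bp and one of 8584 bp. At chr10:33991158-33992239 (folds 10.7 and 20.8) the break was 1951 bp, between domains of 5389 and 5349 bp. The shortest break, 326 bp, was at chr9:61191004-61191694 (folds 13.3 and 16.0) in the third of the groups described above.

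Of the 2 sites lying wholly inside a domain, that on chromosome 9 had normal input. The domain chr9:32347237-32356681 was 9445 bp wide with H3K27me3 folds of 6.99 and 8.96, and its SOX10 site at chr9:32353686-32354815 had SOX10 folds of 15.5 and 31.7 from 20 and 48 tags. The input there, the same library for both replicates, was 1.11 times the genome-wide level as recovered from either SOX10 list. The nearest H3K27ac consensus region was 44.9 kb away. At the other domains with a site across an edge the SOX10 folds were lower in replicate 1 as a rule. The site at chr17:49732323-49733113 had 15.5 and 18.99, that at chr1:154254588-154255440 had 8.32 and 17.6, and that at chr5:104367521-104368446 had 12.48 and 12.7. The site at chr2:61249583-61250983 had 10.6 and 13.9, while that at chr9:61984644-61985735, with 9.36 and 6.70, was the only one of these sites with the lower fold in replicate 2.

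**Figure D5:**
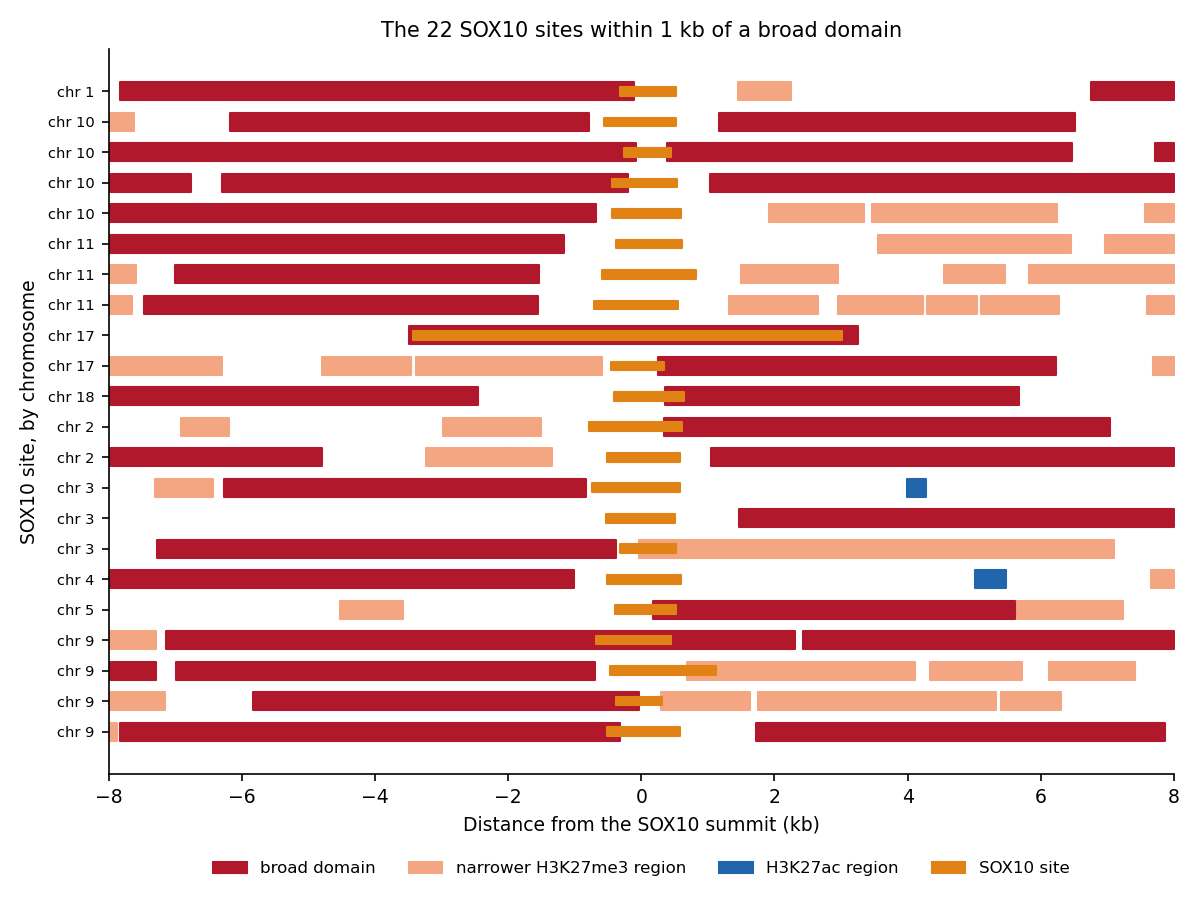
SOX10 sites within 1 kb of a broad domain. Each row is 1 of the 22 sites, drawn to scale in kb from its summit, with broad domains, narrower H3K27me3 regions, H3K27ac regions and the SOX10 sites as blocks; at 19 sites the summit lies outside any H3K27me3 region, and at 13 an H3K27me3 region ends within 2 kb on each side.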

How the data were processed

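Peak lists of 6 ChIP libraries were read, 2 each for H3K27me3, H3K27ac and SOX10, grouped by the antibody and replicate number in the sample titles. The 2 inputs entered only as background of the authors' calls. Per the file headers, the authors ran MACS 1.4.2 on every library by itself, with 1e-05 as the p cutoff. For H3K27me3 the local background was turned off and the tag shift distance set to 200 bp, per the file headers. Positions are mm9, per the submitters' processing notes (aligner: not given in the sources used here).

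The deposited tag count per peak is a whole number. The deposited scores are −log10 of p multiplied by 10, the deposited fold is the ratio of summit tags to background, and the deposited FDR is in percent. A Poisson p from the listed H3K27me3 tags and an input of 22.9 tags per kb matched the listed score within 0.01 at 96.6% and 94.9% of peaks below the score limit, so tags and input share 1 scale. Mean enrichment uses that input density. The score column of SOX10 replicate 1 has a damaged title and was taken for the score by its position, and the input recovered there rests on that. Input under SOX10 and H3K27ac peaks was recovered as the Poisson mean that gives the listed p from the listed tags, and was called high above 5 times the genome-wide level.

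Overlaps needed at least 1 bp, on chromosomes 1 to 19 without 6. Python 3.11.15, numpy 2.4.6, pandas 2.3.3 and scipy 1.17.1 were used, and the computations were checked on simulated regions. Shares have exact Clopper-Pearson 95% intervals for counting error only; no test across libraries, placement or resampling was run. Domains, lists and comparisons were chosen with earlier results of these data known. Domains named are the 10 widest, the 5 highest and 5 lowest by mean log2 fold, the 5 with most acetylated sequence, up to 10 with a SOX10 site, the 3 groups with most domains, and 3 on each side of the width limit. SOX10 sites within 1 kb were chosen after their values were seen, and so were the chromosome 10 group and the 8 wide domains' distances. Alternatives changed widths, merging, score and FDR limits, high-input domains, chromosomes and replicates. Gene lists were not used, since annotation of the mm9 build was not analysed here.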

Additional observations from a re-analysis of the deposited data

How the results depend on the processing

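Of 127 alternative values, 86 counted as unmoved and 41 as moved. The limit was the replicate or counting error, except for the number of domains, which was judged by its ratio to the 785 reported. Of the 12 values for that number, 6 moved, while the 559 domains with peaks sharing at least 50% of the shorter counted as unmoved. The same values for narrower regions were not computed under each setting. The number of domains was 1414 with a width minimum of 4000 bp, 100 with 10000 bp, 1958 with regions less than 1 kb apart joined, and 324 to 392 from 1 H3K27me3 replicate alone. It was 0 with FDR of at most 1%, so nothing else could be computed under it. The median fold was 6.99, 8.85 and 6.67 under the first 3 of these, 7.76 with peaks sharing at least 50% of the shorter, 7.54 with a score of at least 100 and 7.87 to 8.30 without 1 replicate. The cover by both replicates was 75.5%, 91.0%, 58.7%, 85.2% and 80.0% under the same 5 settings, and cannot be had from 1 replicate. H3K27me3 cover of the 5 kb flanks, 44.3% as reported by consensus regions, was 40.03%, 57.1%, 17.8%, 47.9% and 37.2%, then 51.2% to 54.6% without 1 replicate and 43.9% to 44.8% without 1 chromosome. Domains with another within 20 kb were 26% at 10000 bp, 49.8% within 50 kb and 34.7% to 40.4% without 1 replicate. Overlap with H3K27ac was 4% at 10000 bp, 0.637% with an H3K27ac score of at least 100 and 1.23% to 3.95% without 1 replicate, and H3K27ac cover 0.154% to 0.478%. With the H3K27ac list of replicate 1 alone the overlap was 3.44% of domains against 3.19% of narrower regions, the reverse of the order as reported. Overlap with SOX10 was 0% at 10000 bp, 0.255% by summit and 0.765% to 3.82% without 1 replicate, being highest without SOX10 replicate 1. The 0% at 10000 bp comes from only 100 domains, too few to tell it from the 0.148% of regions under 5000 bp. A SOX10 site within 1 kb was found at 1% of domains at 10000 bp and at 1.28% to 7.39% without 1 replicate. The acetylated share of those sites was 0% to 5.56% under every setting tried. Input could be read only where an H3K27ac or SOX10 peak lay in a domain, and no H3K27ac peak touched 739 domains. Leaving out the 3 domains read as high in input kept the widest domain, so it cannot show independence from input. None of these values counted as moved without those 3. The same held without the 3 with folds above 15 in both replicates, chosen after seeing the data. That left 782 domains, a median fold of 7.32, H3K27ac cover of 0.109%, 42.3% with another within 20 kb and 44.4% flank cover. For H3K27ac cover the error, an SD of 0.174, exceeded the reported 0.140%, so no decrease could have counted as moved. Without the high-input domains that cover was 0.0897%. No paired analysis was possible because no result comes from a test between groups, and peaks of both replicates were merged into regions. SOX10 depth limits which sites are seen.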

Other observations

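Outside the numbered chromosomes, 3 H3K27me3 consensus regions on chromosome X were at least 5000 bp wide, with median summit folds of 28.2 in replicate 1 and 17.5 in replicate 2. Only 12 H3K27me3 and 29 H3K27ac consensus regions were found on that chromosome in all.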
